A study of Mus musculus with 7 samples.

Results

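The regions described here are the strongest RelA binding regions of mouse bone marrow-derived dendritic cells (BMDCs) after lipopolysaccharide (LPS). They were selected on their RelA signal, as the regions at 64 RPKM or more in the wild-type RelA library and at least 2-fold over input after 0.5 RPKM was added to both, and 989 of 93611 regions (1.06%) met this rule. RPKM is the number of reads in a region scaled by its length and by the total of its library. No region at 64 RPKM or more missed the input condition, so the RPKM threshold alone decided the choice. The regions are assigned in the deposited annotation to 791 genes, 4.27% of the 18522 genes that hold any region. Because the rule used the wild-type RelA library and the input, values of both libraries, and every ratio that holds them, are given as descriptions and support nothing.

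RelA and RelB are subunits of NF-kB, a family of transcription factors that bind DNA as dimers at kappa B sites. In resting cells, inhibitors of the I kappa B family hold RelA dimers in the cytoplasm. Toll-like receptor signals such as LPS have these inhibitors degraded, RelA enters the nucleus, and among its first targets are the genes of the inhibitors themselves. RelB is best known from the slower noncanonical branch of the pathway and is abundant in dendritic cells, where it is linked to maturation, the switch to high co-stimulation and cytokine output.

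The study measured chromatin immunoprecipitation followed by sequencing (ChIP-seq) in C57BL/6 BMDCs to ask how loss of RelB bears on RelA binding. RelA was precipitated at 1 h of LPS from cells labelled RelBko and from wild-type (WT) cells. RelB was precipitated from the same genotypes at 1 h of LPS and at 0 h without treatment, and 1 input library came from WT cells. All cells were grown in 20 ng/ml GM-CSF with 10 ng/ml IL-4, LPS was given at 10 ng/mL, and each sample took about 10 M cells, crosslinked by DSG (1.0 mM) and PFA (1.0%). The labels do not say how the RelB gene was disrupted, whether marrow was pooled, or what time the input stands for, and the treatment text names a CpG oligonucleotide product beside LPS. ChIP signal measures binding and not expression, so it does not check the cell type. Each of the 7 groups holds 1 library, so no difference has a replicate check and no p-value is given. Library totals recovered from the RPKM values ran from 13188833 to 35064429 reads. In the ChIP libraries of RelA and of WT RelB, between 37.2% and 42.4% of reads lay in the 93611 regions, while the RelBko RelB libraries had 4.62% at 1 h and 7.41% at 0 h and the input 3.52%.

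Promoter sequences of some genes with a chosen region near their start were searched for kappa B forms. Of the 989 regions, 98 lay with their centre between 250 bp before and 50 bp after the transcription start site (TSS) of 97 genes. Of these genes, 51 had 1 matching promoter window in a RefSeq table of the later build GRCm38.p6. That window spans 250 bp before to 50 bp after the TSS given by RefSeq. Another 25 genes had more than 1 window and 21 were not matched. The match was made by gene symbol, since the regions themselves are in mm9, and whether a window overlaps its region was not checked. The 4 windows printed here belong to genes with different RelB values, which are given further on: Nfkbia encodes I kappa B alpha, the inhibitor that ends NF-kB activity, and Traf3 encodes an adaptor that restrains the noncanonical branch. Cxcl10 encodes a chemokine that draws T cells, and Ebi3 encodes a subunit shared by the cytokines interleukin 27 and interleukin 35. They are written 5′ to 3′ on the strand of the gene, with capitals for the letters that match a kappa B form on either strand, either GGGNNTTCC or the longer form with 3 free bases (N) in its middle in place of 2.
Nfkbia, chr12:55492598-55492897, minus strand: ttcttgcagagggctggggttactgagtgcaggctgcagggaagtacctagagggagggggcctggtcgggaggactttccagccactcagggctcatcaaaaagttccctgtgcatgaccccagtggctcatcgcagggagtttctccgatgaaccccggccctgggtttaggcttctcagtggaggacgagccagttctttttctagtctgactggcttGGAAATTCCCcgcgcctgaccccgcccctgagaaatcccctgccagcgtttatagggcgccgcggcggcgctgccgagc
Traf3, chr12:111166120-111166419, plus strand: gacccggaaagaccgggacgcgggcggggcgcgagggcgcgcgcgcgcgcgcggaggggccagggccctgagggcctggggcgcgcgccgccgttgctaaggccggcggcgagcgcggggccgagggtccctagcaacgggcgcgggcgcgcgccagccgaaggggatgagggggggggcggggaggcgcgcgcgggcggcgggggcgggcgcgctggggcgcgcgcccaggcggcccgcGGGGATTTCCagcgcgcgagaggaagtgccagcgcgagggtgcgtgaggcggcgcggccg
Cxcl10, chr5:92348840-92349139, minus strand: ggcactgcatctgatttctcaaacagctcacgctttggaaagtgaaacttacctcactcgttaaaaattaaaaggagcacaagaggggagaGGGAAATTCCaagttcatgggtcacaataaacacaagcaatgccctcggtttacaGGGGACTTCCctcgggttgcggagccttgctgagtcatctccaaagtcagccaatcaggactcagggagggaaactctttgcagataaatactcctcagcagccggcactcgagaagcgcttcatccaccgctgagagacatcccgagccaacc
Ebi3, chr17:55952373-55952672, plus strand: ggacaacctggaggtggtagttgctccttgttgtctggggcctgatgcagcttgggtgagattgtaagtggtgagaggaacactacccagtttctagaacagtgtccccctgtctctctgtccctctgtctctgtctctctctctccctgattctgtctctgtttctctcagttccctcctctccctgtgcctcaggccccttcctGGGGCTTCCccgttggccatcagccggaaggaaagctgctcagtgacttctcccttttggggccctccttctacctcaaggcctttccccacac

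Further matches, each with its nearest bases, show how the sites differ among the promoters. Bcl3 encodes an atypical nuclear I kappa B protein, Cxcl9 a chemokine related to Cxcl10, Tlr2 a Toll-like receptor for bacterial lipoproteins, Sdc4 a cell surface proteoglycan and Ifngr2 a chain of the interferon gamma receptor.
Bcl3, chr7:19822734-19822762, minus strand: cggcggcaggGGAAGTCCCgctgcccggc
Cxcl9, chr5:92328103-92328131, minus strand: ggaaggaaaaGGGATTTCCtaaataaata
Tlr2, chr3:83841762-83841790, minus strand: aggacacctGGGGAATTCCCacacggagc
Sdc4, chr2:164443251-164443280, minus strand: agctttcccgGGGGAATTCCgggcggtgcg
Ifngr2, chr16:91546974-91547003, plus strand: ggaacaccggGGAAAGTCCCcacgggccgg
Counted from the TSS, the printed match began at -29 in Nfkbia, -10 in Traf3, -44 in Ebi3, -42 in Cxcl9 and -173 in Tlr2, and the 2 matching stretches of Cxcl10 began at -159 and -104. In the second of these, and in Traf3, Sdc4 and Tlr2, a longer and a shorter match overlap, and the Tlr2 stretch matches on both strands. Of the 51 promoters, 15 (29.4%) held GGGNNTTCC and 15 (29.4%) held the longer form, and 22 (43.1%) held at least 1 of them. The genes with other regions were those with a region in this window and none of the strongest regions at any distance. Among these 3660 genes 561 (15.3%) held either form, and among all 22862 genes with 1 window 2194 (9.60%) did. The share of GGGNNTTCC was 9.62% in the genes with other regions and 5.64% in all genes, and that of the longer form was 8.47% and 5.55%. A core of the AP-1 site, TGANTCA, was in 3 of the 51 (5.88%), against 5.27% of the genes with other regions and 7.98% of all genes. The PU.1-type core GAGGAAGT was in 5 (9.80%), against 4.10% and 3.32%. The GC box GGGCGG was in 39 (76.5%), against 69.6% and 35.2%. A match is a description of letters in the window, and a promoter with none, such as those of 29 of these 51 genes, may carry other letters that bind.

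In RelA ChIP from RelBko cells, which the rule did not use, the regions had a median of 76.6 RPKM (lowest 21.3, highest 555), against 76.8 RPKM (64 to 238) in WT, where the rule fixed the lower end. All 989 were enriched in the RelBko RelA library, where enriched means 2 RPKM or more and at least 2-fold over input, and 808 (81.7%) again reached 64 RPKM. In WT RelB ChIP the medians were 82.0 RPKM at 1 h (5.72 to 282) and 68.4 RPKM at 0 h (5.40 to 376). At each time 988 regions were enriched for RelB, and 712 (72.0%) reached 64 RPKM at 1 h and 542 (54.8%) at 0 h. Over all 93611 regions, 81.7% were enriched for RelB in WT at 1 h and 75.9% at 0 h. Seen from the other side, the strongest RelA regions made up 39.6% of the 1797 regions with 64 RPKM or more of RelB at 1 h and 31.1% of the 1744 at 0 h. In RelBko cells the RelB antibody gave medians of 4.51 RPKM at 1 h against 8.51 RPKM at 0 h, and the input median was 1.56 RPKM. The same quantities over all regions were 5.43 RPKM for RelA in RelBko, 5.89 RPKM for RelA in WT, 6.28 and 5.46 RPKM for RelB in WT at 1 h and 0 h, 1.06 and 1.49 RPKM for RelB in RelBko at 1 h and 0 h, and 0.903 RPKM in input. The input was thus also higher in the chosen regions, and the part of this in the other libraries was not tested.

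**Figure D1:**
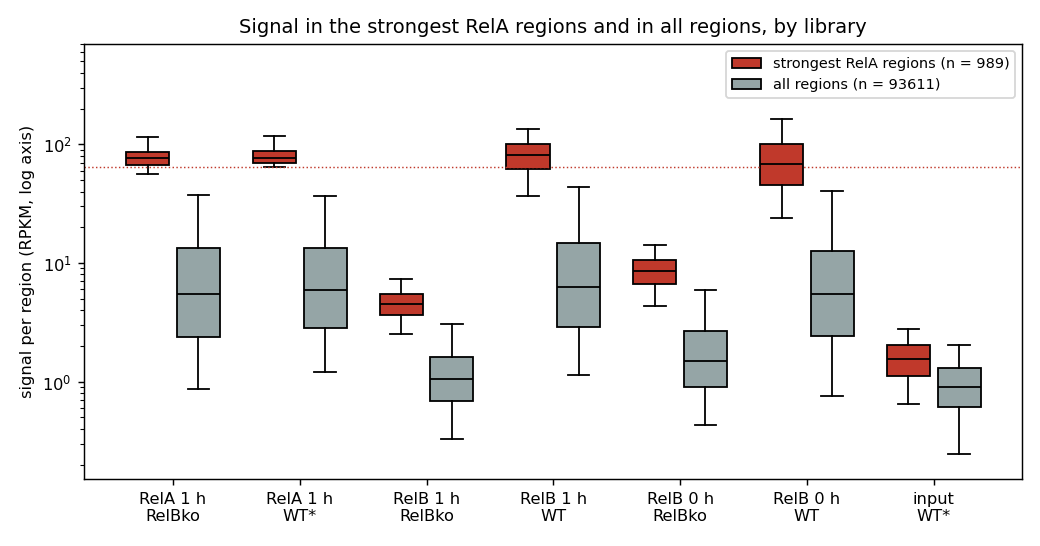
Signal per region in each of the 7 libraries, on a log axis of RPKM, for the 989 strongest RelA regions (red) and for all 93611 regions (grey). Boxes span the quartiles of the regions with the median as a line, whiskers the 5th to 95th percentile, the dotted line is the threshold of 64 RPKM, and stars mark the libraries the rule used. The red boxes of RelA in RelBko and of RelB in WT lie around those of RelA in WT, while RelB in RelBko lies near 4.51 RPKM at 1 h against 8.51 RPKM at 0 h.

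The regions with the most RelA included promoters of genes of the NF-kB pathway itself. The highest value in WT, 238 RPKM, belonged to a 168 bp region in an intron of Fam172a (chromosome 13, 77578134 to 77578301), which also had 78.5 RPKM in input, the highest input of any region. Second was the promoter of Nfkbia (chromosome 12, 56593546 to 56593910, -94 bp from the TSS), with 191 RPKM of RelA in RelBko and 190 RPKM in WT. Its RelB signal was 9.84 RPKM in RelBko and 207 RPKM in WT at 1 h, and 23.8 RPKM in RelBko and 328 RPKM in WT at 0 h, against 1.87 RPKM in input. The ratio of RelA reads at the Nfkbia promoter, RelBko over WT, was 1.01 with a 95% interval of 0.936 to 1.09 that spans 1 (exact, as for all ratios of reads given here, and for counting error only). A region in an intron of Cuedc1 had 154 RPKM of RelA in RelBko and 177 RPKM in WT. One upstream of Gtf3c5, a subunit gene of transcription factor IIIC, had 149 RPKM in RelBko and 169 RPKM in WT, and it held the highest RelB of the 989 regions, 282 RPKM at 1 h against 376 RPKM at 0 h in WT. The promoter of Nfkb2, which encodes the p100 precursor of the noncanonical partner p52, had 130 RPKM in RelBko and 145 RPKM in WT. The promoter of Jak2, the kinase behind many cytokine receptors, had 139 RPKM in RelBko and 143 RPKM in WT.

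At the other end, the 3 regions just inside the threshold were assigned to 2310043L19Rik, Irf8 and Tmem131l, with 64.01, 64.03 and 64.07 RPKM of RelA in WT. The 3 just outside were assigned to Itm2c, 4930487H11Rik and Zfp658, with 63.99, 63.96 and 63.96 RPKM. Their RelA in RelBko was 63.7, 64.4 and 62.6 RPKM inside the threshold and 54.0, 55.5 and 67.1 RPKM outside it, so values on both sides of the threshold overlapped.

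RelA at these regions differed little between RelBko and WT cells. The log2 ratio of RPKM plus 0.5 had a median of -0.04 for RelBko over WT, against -0.06 over the compared regions, and its quartiles were -0.15 and 0.06. With the median ratio of the compared regions set to 1 the median of the 989 was 0.01, and scaled on regions without enrichment it was 0.03, so its sign rests on the scaling. By a call at 2-fold, 1 region was higher in RelBko, against 1.30% of the 80885 regions enriched in either RelA library, and 1 was lower, against 4.94%. The remaining 987 lay within 2-fold. Within 1.2-fold lay 855 of the 989 (86.5%), against 46.4% of the compared regions. The chosen regions held more reads, with medians of 658 in RelBko and 491 in WT, and hence less counting error than the compared regions at large, and the part of depth in this narrowness was not tested. When the same rule was put to the RelBko library it gave 1001 regions, of which 808 were shared (80.7% of these and 81.7% of the 989), and the median log2 ratio was then 0.03, with no region 2-fold lower.

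The only called rise was the Fam172a region, with 555 RPKM in RelBko and 238 RPKM in WT. Its RelB ChIP values were 2803 RPKM in RelBko and 48.2 RPKM in WT at 1 h, and 89.2 RPKM in RelBko and 41.8 RPKM in WT at 0 h. In WT its RelB thus lay below its input of 78.5 RPKM, and it was the 1 region of the 989 not enriched for WT RelB at either time. The only called fall was a region in an intron of Samsn1 (chromosome 16, 75877443 to 75877789), a gene for an adaptor protein of haematopoietic cells. It had 21.3 RPKM in RelBko and 77.5 RPKM in WT, a ratio of 0.275 (0.230 to 0.327) from 177 and 473 reads. RelB at the same place was 6.06 RPKM in RelBko and 62.9 RPKM in WT at 1 h, and 4.78 RPKM in RelBko and 33.9 RPKM in WT at 0 h. A second Samsn1 region, upstream of the gene, had 62.6 RPKM of RelA in RelBko and 69.2 RPKM in WT. The low value was thus limited to 1 of the 2 Samsn1 regions among the 989.

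Short of the 2-fold call, the lowest ratio belonged to a region at -16001 bp from the start of Fosb, an immediate early gene of the AP-1 family. It had 34.2 RPKM in RelBko and 65.2 RPKM in WT, a ratio of 0.525 (0.450 to 0.612). Another Fosb region, at -6642 bp, had 57.7 RPKM in RelBko and 68.2 RPKM in WT. Regions near Platr4 and in Pnoc followed, with ratios of 0.570 (0.501 to 0.648) and 0.579 (0.513 to 0.653). The Fosb regions lie near Relb, the gene disrupted in RelBko cells. On chromosome 7 they start at 19911218 and 19901852, and the promoter regions of Relb and Bcl3 at 20214655 and 20407954. The part of this nearness in the RelA ratios of these regions was not tested. Among the highest ratios after Fam172a were those at Mylk2 and Rarg, with 95.8 and 93.8 RPKM in RelBko and 69.8 and 68.2 RPKM in WT.

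**Figure D2:**
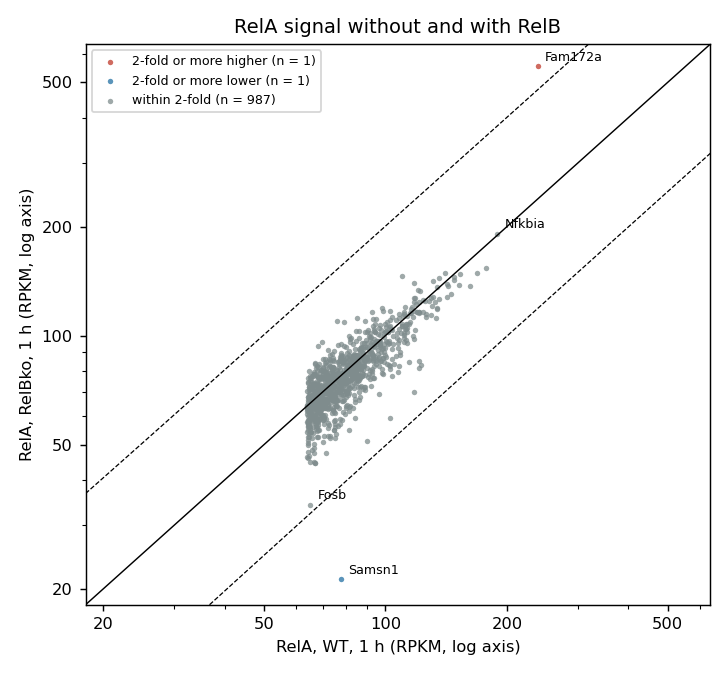
RelA signal at 1 h in RelBko (vertical) against WT (horizontal) for the 989 regions, both on log axes of RPKM. The solid line marks equal signal, the dashed lines the 2-fold call with 0.5 RPKM added, and the sharp left edge is the 64 RPKM threshold in WT. Fam172a, at 555 and 238 RPKM, lies above the upper line, Samsn1, at 21.3 and 77.5 RPKM, lies below the lower line, and 987 regions lie between them.

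The RelA ratio was much alike whatever RelB a region had carried before LPS. In quartile groups of the 989 regions by WT RelB at 0 h, with median RelB of 32.7, 56.6, 81.0 and 129 RPKM, the median log2 ratio of RelA in RelBko over WT was -0.05, -0.05, -0.03 and -0.05. Over the regions, Spearman's correlation of this ratio was 0.01 with WT RelB at 0 h and 0.19 with WT RelB at 1 h. RelA in RelBko and in WT correlated at 0.79, WT RelB at 1 h and 0 h at 0.80, and WT RelA with WT RelB at 0 h at 0.27. The rule cut WT RelA at 64 RPKM and left it a narrow spread. Its 95th percentile was 1.82 times the 5th, against 30.5 times over all regions. Correlations that hold WT RelA are thus shaped by the rule and do not rank against the others. All of these correlations are descriptions over 989 regions that share libraries and mappability.

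RelB behaved differently after LPS from region to region. In WT the log2 ratio of RelB at 1 h over 0 h had a median of 0.17, against 0.14 over the 80966 compared regions. By the 2-fold call 74 regions rose (7.48%, against 11.0% of compared regions) and 5 fell (0.506%, against 1.68%). With the median ratio of the compared regions set to 1, which takes 0.14 off every log2 ratio, 5.16% of the 989 were higher and 8 (0.809%) were lower. In all, 908 of the 989 regions (91.8%) stayed within 2-fold both for RelA between genotypes and for RelB between times, against 82.7% of 89618 regions enriched in any of these 4 libraries. The chosen regions thus passed the RelB call somewhat less often than the compared regions in both directions, and no test bears on that gap. They held more RelB reads than regions at large, with WT medians of 831 at 1 h and 860 at 0 h, and hence less counting error. The part of depth in the gap was not tested.

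The largest rises began from low RelB. Near Mylk2, a muscle myosin kinase gene, RelB stood at 49.2 RPKM at 1 h against 7.13 RPKM at 0 h, a ratio of 6.90 (5.49 to 8.76). Far upstream of Calm2, a calmodulin gene, it was 51.4 RPKM at 1 h against 8.60 RPKM at 0 h. In an intron of Tbk1, the kinase that activates interferon regulatory factors, it was 68.4 RPKM at 1 h against 15.5 RPKM at 0 h, a ratio of 4.41 (3.76 to 5.19). Genes of the inflammatory response were among the 74. RelB near the chemokine gene Ccl17 stood at 82.4 RPKM at 1 h against 21.5 RPKM at 0 h, and at the promoter of Tnfsf9, a co-stimulatory ligand, at 66.7 RPKM at 1 h against 18.1 RPKM at 0 h. At the promoter of Ebi3 it was 101 RPKM at 1 h against 35.6 RPKM at 0 h. At a promoter region of Dusp2, a phosphatase that turns off MAP kinases, it was 138 RPKM at 1 h against 39.0 RPKM at 0 h. At a promoter region of Tnf, at -623 bp from the start, it was 112 RPKM at 1 h against 53.6 RPKM at 0 h. The other chosen Tnf promoter region, at -144 bp, fell just short of the call, with 130 RPKM at 1 h against 66.0 RPKM at 0 h. The 74 regions had median RelB of 70.3 RPKM at 1 h against 27.0 RPKM at 0 h, and median RelA of 80.0 RPKM in RelBko and 76.3 RPKM in WT. The RelA medians of these regions lay close to those of the whole set, and their log2 ratio between genotypes ran from -0.52 to 0.52 with a median of 0.03.

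Without that scaling, the 5 falls were at Nfkbia, Traf3, Relb, Cd74 and Chd2, and all began from high RelB, between 104 and 326 RPKM at 0 h. A second Nfkbia region, in an intron at 728 bp from the start, had 102 RPKM of RelB at 1 h and 326 RPKM at 0 h, a ratio of 0.312 (0.291 to 0.335). The Nfkbia promoter fell short of the call, with 207 RPKM at 1 h against 328 RPKM at 0 h. At the Traf3 promoter RelB was 121 RPKM at 1 h against 244 RPKM at 0 h, and at the Relb promoter itself 49.3 RPKM at 1 h against 104 RPKM at 0 h. At the promoter of Cd74, the invariant chain of MHC class II, it was 86.5 RPKM at 1 h against 180 RPKM at 0 h, and in Chd2, a chromatin remodeller gene, 64.5 RPKM at 1 h against 135 RPKM at 0 h. RelA at these 5 regions lay between 58.5 and 106 RPKM in RelBko and between 76.2 and 101 RPKM in WT, so regions with the steepest RelB falls and rises overlapped in RelA.

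**Figure D3:**
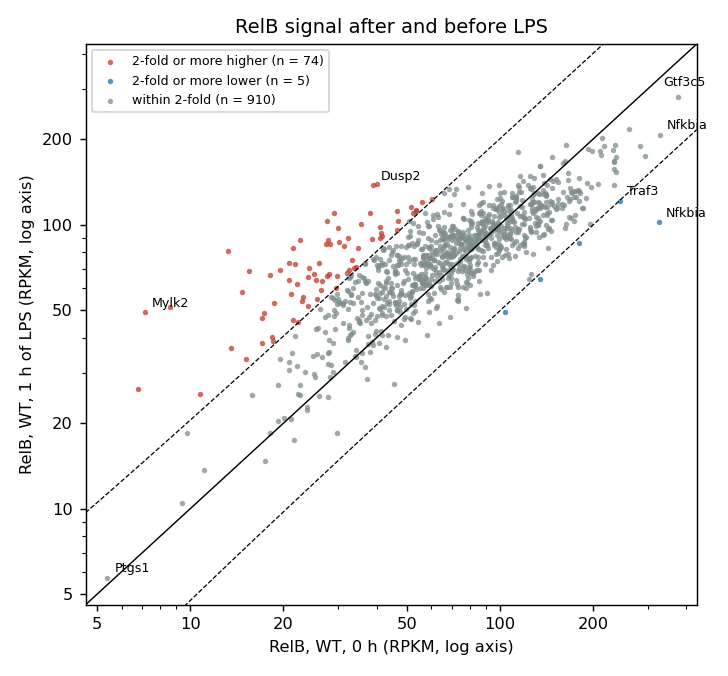
RelB signal in WT at 1 h of LPS (vertical) against 0 h (horizontal) for the 989 regions, both on log axes of RPKM, with the line of equal signal (solid) and the 2-fold call (dashed). Regions called higher at 1 h (74, red) lie at low to middling RelB at 0 h, and those called lower (5, blue) at 104 RPKM or more, so the cloud is flatter than the solid line.

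The same flattening shows in the quartile groups. The median log2 ratio of RelB at 1 h over 0 h was 0.71 in the group with the least RelB at 0 h, then 0.32 and 0.08, and -0.23 in the group with the most. Of the 74 rises, 65 lay in the lowest group and 9 in the next, and all 5 falls lay in the highest. The groups were formed on the 0 h library, which is also the denominator of the ratio, so part of this slope follows from the way they were formed. The spread of RelB over the regions was narrower at 1 h, with the 95th percentile 3.70 times the 5th, against 6.97 times at 0 h. This uses each library by itself. Over all 93611 regions the spread was also narrower at 1 h, at 37.98 times against 52.70 times at 0 h. The chosen regions were picked on WT RelA at 1 h, which correlated with WT RelB at 0.38 at 1 h and 0.27 at 0 h (Spearman). The part of that choice in the narrower spread was not tested.

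**Figure D4:**
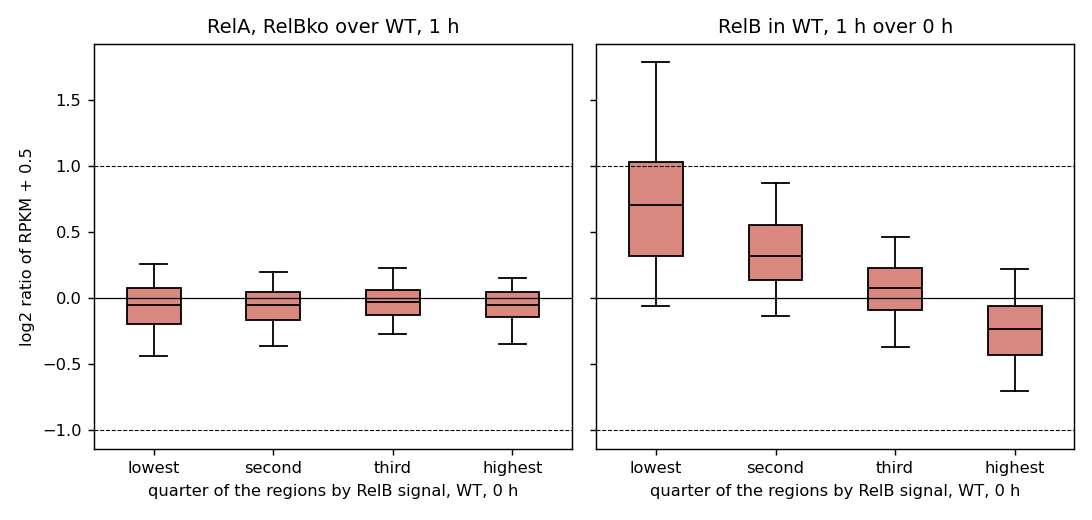
Log2 ratios in quartile groups of the 989 regions by WT RelB at 0 h, for RelA in RelBko over WT (left) and for RelB in WT at 1 h over 0 h (right). Boxes span the quartiles with the median as a line, whiskers the 5th to 95th percentile, and dashed lines the 2-fold call. On the left all medians lie between -0.05 and -0.03, and on the right they run from 0.71 to -0.23.

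In RelBko cells the RelB antibody lost most of its signal at these regions. At 1 h 987 of 989 were 2-fold or more lower than in WT, against 95.9% of the 76583 compared regions, with a median log2 ratio of -4.03, against -2.47. At 0 h 975 were lower, against 86.0% of 71649, with a median of -2.94, against -1.85. The chosen regions began from more RelB in WT, with medians of 82.0 RPKM at 1 h and 68.4 RPKM at 0 h. Over all regions these medians were 6.28 and 5.46 RPKM. Weak regions have less room to fall on this scale, since 0.5 RPKM is added to both values. The part of the starting level in these gaps was not tested. At each time 1 region was higher (against 0.128% at 1 h and 0.504% at 0 h), and it was Fam172a at both. Scaling on the median of compared regions adds 2.47 and 1.85 to these log2 ratios and leaves 83.0% lower at 1 h and 54.9% at 0 h. Since most compared regions were lower in RelBko, this scaling takes off the loss they share. Scaling on regions without enrichment adds 0.74 and 0.54 and leaves 99.5% lower at 1 h and 94.9% at 0 h. Among the largest drops was that near Platr4, where the values were 2.96 RPKM in RelBko and 190 RPKM in WT at 1 h, and 4.13 RPKM in RelBko and 218 RPKM in WT at 0 h, a ratio of 0.019 (0.012 to 0.028).

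What RelB signal was left in RelBko still stood over input at many regions. It was enriched at 669 regions at 1 h (67.6%, against 6.36% of all regions) and at 957 regions at 0 h (96.8%, against 24.1%). Signal at 1 h, set over 0 h in RelBko, was lower by 2-fold or more at 382 of 989 (38.6%, against 44.1% of 23402 compared) and higher at 2 (against 0.863%), Fam172a and Mylk2. The median log2 ratio was -0.85, against -0.93 over the compared regions. Over the 989 regions the residual RelB signal of RelBko correlated with RelA of RelBko at 0.53 at 1 h and 0.40 at 0 h (Spearman, a description).

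Set against each other, RelA and RelB had like RPKM values over the 989 regions, though the balance differed by place. The antibodies differ, so like values do not stand for equal binding. RelA over RelB in WT at 1 h had a median log2 ratio of 0.00, with 54 regions 2-fold or more higher for RelA (against 7.45% of 85014 compared) and 9 lower (against 7.21%). This median holds the library of the rule and moved with the settings. It was -0.07 with the threshold at 48 RPKM, 0.11 at 96 RPKM, and 0.16 when scaled on the median of compared regions. RelA of RelBko was then put in place of RelA of WT, so that the library of the rule drops out but genotype and antibody differ together. By that ratio 35 were higher (against 5.85%) and 15 lower (against 14.6%). Of the 35, 13 (37.1%) were promoters and 7 (20.0%) lay between genes. Of the 15, none was a promoter and 9 (60.0%) lay between genes. By class, the median of this second log2 ratio was 0.22 in promoters, -0.03 in introns and -0.16 between genes, against 0.21, -0.22 and -0.26 over all 93611 regions, so the classes stood in the same order there. Scaling on the median of compared regions adds 0.17 to each, which takes the values of introns and of stretches between genes above 0 and leaves the order of the classes.

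Regions with RelA and little RelB were led by one at -16160 bp from the start of Ptgs1, the gene of the constitutive cyclooxygenase. Its RelA was 45.9 RPKM in RelBko and 64.4 RPKM in WT. Its RelB was 1.97 RPKM in RelBko and 5.72 RPKM in WT at 1 h, and 6.77 RPKM in RelBko and 5.40 RPKM in WT at 0 h. At 0 h the RelB ratio of RelBko over WT had an interval of 0.823 to 1.89, which spans 1. It was the region with the lowest WT RelB of the 989 at both times, and its ratio of RelA in RelBko to RelB in WT, 8.03 (6.03 to 10.9), was the highest after that of Fam172a. The promoter of the forkhead gene Foxd2 had 63.5 RPKM of RelA in RelBko and 74.7 RPKM in WT, and its RelB was 2.59 RPKM in RelBko and 10.5 RPKM in WT at 1 h. An intron region at 535 bp from the start of Nfatc1, a calcium-regulated transcription factor of the Rel homology family, had 72.3 RPKM of RelA in RelBko and 88.7 RPKM in WT, and 3.16 RPKM of RelB in RelBko and 13.7 RPKM in WT at 1 h. The promoter of Cd83, a surface marker of mature dendritic cells, had 104 RPKM of RelA in RelBko and 118 RPKM in WT. Its RelB was 5.67 RPKM in RelBko and 37.7 RPKM in WT at 1 h. A second Cd83 region at -6937 bp had more of both, with RelA at 122 RPKM in RelBko and 119 RPKM in WT and RelB at 5.14 RPKM in RelBko and 161 RPKM in WT. The Cd83 promoter and this second region thus differed in their balance more than RelA did between genotypes at either. Their log2 ratios of RelA over RelB in WT at 1 h were 1.63 and -0.44. Those of the other chosen Cd83 regions lay between, at 0.15 and 0.05.

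By annotation, the chosen regions were promoters more often than regions at large. Promoters made up 179 of 989 (18.1%, 95% Wilson interval 15.8% to 20.6%), against 11.0% of all regions (10.8% to 11.2%). Introns made up 382 (38.6%, 35.6% to 41.7%), against 44.1%, and stretches between genes 384 (38.8%, 35.8% to 41.9%), against 39.2%. The median distance to the TSS was 7293 bp, against 18369 bp, and 26.6% lay within 1 kb of it, against 15.7%. The regions were of ordinary length, with a median of 356 bp, against 361 bp. Promoters among them had less RelB than the regions between genes, with WT medians at 1 h of 69.1 RPKM in promoters and 88.4 RPKM between genes, and at 0 h of 53.9 RPKM in promoters and 74.8 RPKM between genes. Over all 93611 regions the order was the other way, with 10.8 RPKM in promoters and 5.54 RPKM between genes at 1 h, and 9.34 RPKM in promoters and 4.85 RPKM between genes at 0 h. RelA in RelBko had medians of 77.0 RPKM in promoters and 76.5 RPKM between genes. In the quartile group with the least RelB at 0 h, 66 of 248 regions (26.6%) were promoters, and in that with the most 29 of 247 (11.7%).

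**Figure D5:**
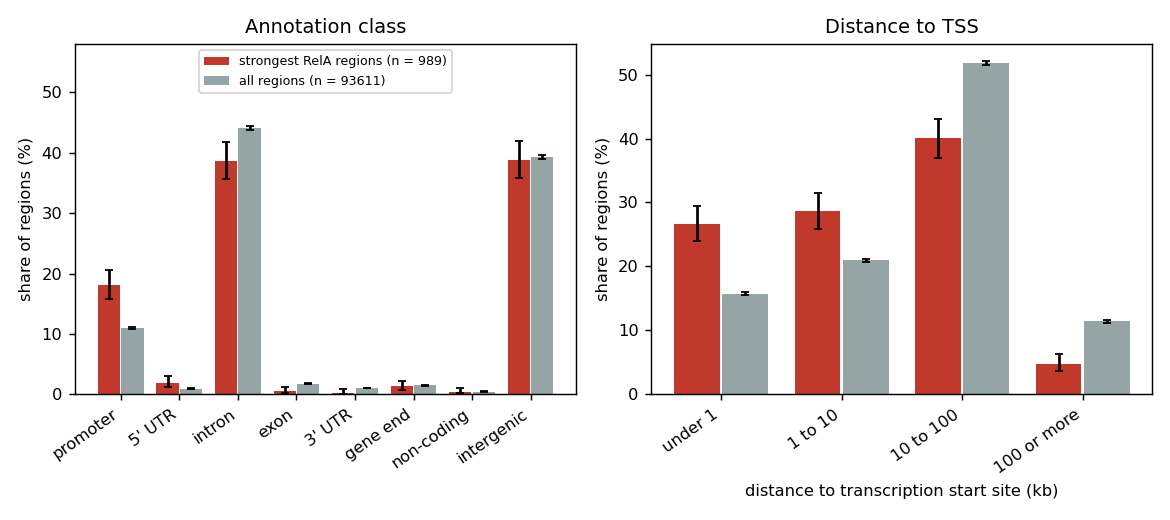
Share of regions (%) by annotation class (left) and by distance to the transcription start site (right), for the 989 strongest RelA regions (red) and all 93611 regions (grey), with Wilson 95% intervals as error bars. Promoters made up 18.1% of the red set and 11.0% of the grey, and 26.6% of the red set and 15.7% of the grey lay within 1 kb of a start site.

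Within 10 kb of another chosen region lay 252 of the 989 (25.5%), in 112 groups, and the other 737 stood alone at that distance. The largest group was at Skil, which encodes a repressor of SMAD signalling: 5 regions in 11931 bp of chromosome 3, from 30982885 to 30994815, with RelA between 82.0 and 118 RPKM in RelBko and between 72.6 and 134 RPKM in WT. Its RelB lay between 85.1 and 123 RPKM in WT at 1 h and between 81.9 and 134 RPKM at 0 h, so all 5 were high for both factors. Tnfaip3, the gene of the ubiquitin editor A20, also held 5, but with more spread. Its promoter had 141 RPKM of RelA in RelBko and 131 RPKM in WT, and RelB of 117 RPKM at 1 h against 161 RPKM at 0 h in WT. A Tnfaip3 region at -62470 bp had 89.7 RPKM of RelA in RelBko and 77.7 RPKM in WT, and RelB of 70.5 RPKM at 1 h against 24.3 RPKM at 0 h in WT. In WT, RelB was thus lower at 1 h at the promoter and higher at 1 h at the distal region of the same gene. Traf1, a signalling adaptor, and Rftn1, a lipid raft protein gene, held 5 each, and Cd83, Gadd45b, D10Jhu81e and St3gal1 held 4. The 4 Gadd45b regions, near a gene of the stress response, lay in 7046 bp and had RelA between 68.5 and 127 RPKM in RelBko and between 70.8 and 118 RPKM in WT. Of the 791 genes, 638 held a single chosen region.

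The set was also read against 252 genes in 16 lists, which were chosen with earlier results of these data known and serve as a description. Of 242 listed genes that hold a region, 79 (32.6%) held at least 1 of the strongest RelA regions, against 4.27% of all genes. Genes of the lists also hold many regions, and the part of this in the share was not tested.

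All 6 I kappa B genes were in the set, with 8 regions. Besides Nfkbia, the promoter of Nfkbiz had 125 RPKM of RelA in RelBko and 128 RPKM in WT, and RelB of 125 RPKM at 1 h against 109 RPKM at 0 h in WT. The promoter of Bcl3 had 97.2 RPKM of RelA in RelBko and 113 RPKM in WT, and that of Nfkbid 93.1 RPKM in RelBko and 89.3 RPKM in WT. Neither of the 2 RelA calls between genotypes among the 989 was in this list, and 1 of its 8 regions, the Nfkbia intron, was among the 5 RelB falls (0.506% of the 989). Of the 5 NF-kB subunit genes, 4 were in the set, each at its promoter, and Rela itself was not. RelA at the Rel promoter was 104 RPKM in RelBko and 112 RPKM in WT, at Nfkb1 72.6 RPKM in RelBko and 91.9 RPKM in WT, and at Relb 70.6 RPKM in RelBko and 89.0 RPKM in WT. RelB at the 4 promoters in WT had a median of 80.1 RPKM at 1 h against 104 RPKM at 0 h. Only Relb passed the 2-fold call there.

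Ubiquitin editors and TRAF adaptors had 7 of 14 genes in the set, with 19 regions. They included Birc3, a ubiquitin ligase, whose region near the start had 79.9 RPKM of RelA in RelBko and 80.6 RPKM in WT, and RelB of 101 RPKM at 1 h against 196 RPKM at 0 h in WT. Zc3h12a, the gene of the RNase Regnase-1, had 2 regions. In the one 5184 bp from its start RelA was 79.3 RPKM in RelBko and 107 RPKM in WT, and in the one 2986 bp from it 90.5 RPKM in RelBko and 87.6 RPKM in WT. The genes without one were Tnip2, Tnip3, Cyld, Traf2, Traf6, Birc2 and Map3k14.

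Cytokine genes had 7 of 21 in the set (Tnf, Il1a, Il6, Il12b, Ebi3, Lif and Csf1), and chemokine genes 8 of 17. Upstream of Il1a, RelA was 108 RPKM in RelBko and 114 RPKM in WT, and RelB 142 RPKM at 1 h against 149 RPKM at 0 h in WT. Upstream of Il12b, the gene of the p40 subunit of interleukin 12, RelA was 75.1 RPKM in RelBko and 81.9 RPKM in WT, and RelB 135 RPKM at 1 h against 115 RPKM at 0 h in WT. At the Cxcl10 promoter printed above, RelA was 63.1 RPKM in RelBko and 71.0 RPKM in WT, and RelB 83.0 RPKM at 1 h against 114 RPKM at 0 h in WT. At Cxcl9, RelA was 66.3 RPKM in RelBko and 70.5 RPKM in WT, and RelB 104 RPKM at 1 h against 106 RPKM at 0 h in WT. Upstream of Cxcl16 RelB was 138 RPKM at 1 h against 234 RPKM at 0 h in WT, with RelA at 114 RPKM in RelBko and 130 RPKM in WT. Of the 10 cytokine and 11 chemokine regions 4 were among the RelB rises at 2-fold, in Tnf, Ebi3, Ccl5 and Ccl17, against 7.48% of the 989.

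Among dendritic cell maturation genes 6 of 22 were in the set, with 12 regions: Cd40, Cd83, Cd86, Icam1, Ccr7 and Marcksl1. Cd40, the co-stimulatory receptor for T cell help, had 126 RPKM of RelA in RelBko and 124 RPKM in WT at -383 bp from its start, and RelB of 133 RPKM at 1 h against 68.7 RPKM at 0 h in WT. In an intron of Cd86, another co-stimulatory gene, RelA was 75.1 RPKM in RelBko and 64.9 RPKM in WT. Near Ccr7, a chemokine receptor gene used by migrating dendritic cells, it was 85.1 RPKM in RelBko and 76.9 RPKM in WT. The MHC class II genes H2-Aa, H2-Ab1 and H2-Eb1 and their activator Ciita had none of the strongest RelA regions, and the share of all genes (4.27%) would also give few here. Of the TNF superfamily list 5 of 18 were in the set.

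Immediate early genes had 17 of 24 in the set, with 24 regions, the largest number of genes of any list. Near Fos, at 39956 bp from its start, RelA was 98.5 RPKM in RelBko and 82.4 RPKM in WT, and RelB 98.4 RPKM at 1 h against 41.1 RPKM at 0 h in WT. Upstream of Zfp36, the gene of the mRNA-decay factor tristetraprolin, RelA was 95.7 RPKM in RelBko and 108 RPKM in WT. In an intron assigned to Egr3 RelB was 141 RPKM at 1 h against 191 RPKM at 0 h in WT, with RelA at 92.3 RPKM in RelBko and 98.4 RPKM in WT. Survival and stress genes had 5 of 17, interferon and STAT genes 5 of 24 (Irf1, Irf5, Irf8, Stat5a and Socs3), and lineage factors 9 of 22. In an intron of Sod2, the mitochondrial superoxide dismutase, RelB was 26.3 RPKM at 1 h against 6.80 RPKM at 0 h in WT, with RelA at 59.2 RPKM in RelBko and 64.9 RPKM in WT. None of the interferon-induced effector genes of the list, such as Ifit1, Isg15 and Mx1, held a chosen region. For so few genes the share of all genes, 4.27%, would also give few. Near the lineage gene Zbtb46, which marks conventional dendritic cells, RelA was 83.7 RPKM in RelBko and 76.8 RPKM in WT. Flt3 and Batf were also among the lineage genes with a chosen region, while Itgax, Batf3, Id2, Spi1 and Csf1r were among those without one.

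Housekeeping genes had 2 of 19 in the set (10.5%, against 4.27% of all genes), Actb at -4898 bp and Rplp0 at -15222 bp from the start. None was found among neutrophil markers (11 genes with a region), B cell markers (9), T and NK cell markers (11), or erythroid and mast cell markers (6), numbers of genes at which the share of all genes would also give few. Outside the lists, a region near the host gene of miR-155 (Mir155hg) had 119 RPKM of RelA in RelBko and 98.1 RPKM in WT, and RelB of 103 RPKM at 1 h against 51.0 RPKM at 0 h in WT. One near Mir146 had 72.6 RPKM of RelA in RelBko and 87.2 RPKM in WT, and RelB of 53.8 RPKM at 1 h against 73.0 RPKM at 0 h in WT. Both microRNAs are known as NF-kB targets that temper inflammatory signalling, and both regions were picked here after their values were seen.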

How the data were processed

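Per the file headers, the deposited table holds RPKM values calculated by the authors for 7 libraries over 93611 regions, with coordinates, distance to the TSS, nearest gene and annotation class. HISAT2, HOMER and bedtools, with the build mm9, come from the submitters' processing notes (versions, roles of the tools and choice of regions: not given in the sources used here). Multiplied by region length, every RPKM value was a whole multiple of 1 read (100% within 0.01 read), which gave read numbers and library totals; no value lay under 1 read, so the authors may have added 1 to each, and taking 1 read off was tried.

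Ratios are log2 of RPKM plus 0.5, a scale that understates changes of weak regions, called at 2-fold. A region was compared where it was enriched (2 RPKM or more and 2-fold over input) in either library. Ratios of reads carry exact (Clopper-Pearson) 95% intervals and shares Wilson 95% intervals. Both stand for counting error alone, as reads without molecular identifiers can be copies of 1 molecule. Python 3.11.15 with pandas 2.3.3, numpy 2.4.6, scipy 1.17.1 and matplotlib 3.10.9 was used. The calls were tried on simulated reads with counting error alone and large changes set in strong regions. That trial checks the working of the call and does not bear on variation between libraries.

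Genes named are those of the 12 highest regions, the strongest region of up to 4 genes of each list, the 4 most extreme regions in each direction of each comparison, the 3 regions on either side of the threshold and up to 8 genes with most regions; further list genes and the regions with least RelB were added after their values were seen, and some genes that met these rules are not reported here. The regions, lists and named genes were chosen with earlier results of these data known. Coordinates are mm9, counted from 1, except promoter sequences, which are RefSeq's on GRCm38.p6.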

Additional observations from a re-analysis of the deposited data

Results flagged for a closer look

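Over the 989 regions the median log2 ratio of RelB signal at 1 h over 0 h was -0.85 in RelBko and 0.17 in WT, so the genotypes stood on opposite sides of 0. The difference was not tested, since each group holds 1 library. The compared regions had like medians, -0.93 in RelBko and 0.14 in WT, so the signs are not a trait of the chosen regions. Of the 989 regions, 607 (61.4%) were below 0 in RelBko and above 0 in WT, against 56.2% of 22846 regions compared in both genotypes. The 2-fold call was passed in opposite directions by 5 (0.506%), against 0.521%, among them regions at Esr1, Syne3, 9330179D12Rik and Mir762. The promoter region of Mir762 had 2.10 RPKM at 1 h against 8.44 RPKM at 0 h in RelBko, and 40.1 RPKM at 1 h against 18.3 RPKM at 0 h in WT. The RelBko libraries held few reads per region, with medians of 31 at 1 h and 53 at 0 h, against 831 and 860 in WT. With the median ratio of the compared regions set to 1, the medians were 0.08 in RelBko and 0.02 in WT, and the opposite signs were gone. That scaling takes off the medians of the compared regions given above. Scaled on regions without enrichment, the medians were -0.75 in RelBko and 0.10 in WT, and the signs stayed opposite.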

How the results depend on the processing

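No paired analysis was possible because each group holds 1 library. Of 204 alternative values of 23 shares, 156 stayed close to the value given and 48 moved. With the threshold at 96 RPKM, Fam172a alone gave 0.606% higher in RelA and in RelB between genotypes at 1 h and at 0 h. The same threshold gave 0% lower for RelA between genotypes, 10.9% higher and 1.21% lower for RelB over time, 99.4% lower for RelB between genotypes at 0 h, 7.88% higher for RelA over RelB, and 0% lower with RelA of RelBko. There 99.4% were enriched for WT RelB at either time and 84.2% for RelBko RelB at 1 h, and 26.1% were promoters, 32.7% introns and 9.50% of list genes held a region. With 48 RPKM, 92.9% and 57.9% were enriched for RelBko RelB at 0 h and 1 h and 50% of list genes held a region. Regions with input of 4 RPKM or less gave 0% higher between genotypes for RelA and for RelB at both times, 100% lower for RelB at 1 h and 100% enriched for WT RelB at both times. Chosen on RelBko RelA, 0% were lower for RelA, 34.6% lower for RelBko RelB over time, 3.40% higher for RelA over RelB, 0.200% lower with RelA of RelBko, and 73.2% enriched for RelBko RelB at 1 h. With 1 region per gene, the one with the most RelA in RelBko, 0% were lower for RelA. That choice itself left out the low Samsn1 region, so this 0% bears on nothing. A pseudocount of 0.1 RPKM gave 42.9% lower for RelBko RelB over time and 75.2% enriched at 1 h, and one of 2 RPKM gave 20.2% lower, 36.6% enriched at 1 h and 87.7% at 0 h. With 1 read taken off, 73.9% were enriched at 1 h. Scaled to a median ratio of 1, 5.16% rose for RelB over time in WT, 83.0% were lower for RelB between genotypes at 1 h and 54.9% at 0 h (0.607% higher), 4.15% were higher and 0.506% lower for RelBko RelB over time, 7.48% were higher and 0.404% lower for RelA over RelB, and 6.57% were higher with RelA of RelBko. Scaled on 3628 regions without enrichment, 94.9% were lower for RelB between genotypes at 0 h, 28.7% lower for RelBko RelB over time, and 6.07% higher with RelA of RelBko. Under the median scaling the log2 ratio of RelB between genotypes turned positive at 1 h for Rn45s (1.39), Ptgs1 (1.13), Foxd2 (0.64), Nfatc1 (0.51), Zfp764 (0.38) and 6820431F20Rik (0.18). At 0 h the regions that did so included those of Mylk2 (0.63), Pex2 (0.59), the Cd83 promoter (0.49), Calm2 (0.36), Sod2 (0.35), Rn45s (0.17) and Rarg (0.10). For these results the cause was not tested beyond the scaling itself, which adds 2.47 and 1.85 at 1 h and 0 h. It takes off the median loss of the compared regions, so a positive value here stands for a smaller loss than that median. At low read numbers, as in RelBko RelB and the input, differences of a few reads were not detectable.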

Other observations

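The X chromosome held 1 of the 989 regions (0.101%), against 2.56% of all regions. Of its 2399 regions 0.0417% were chosen, while the 19 autosomes ranged from 0.616% to 1.40%. Median RelA in WT over X regions was 3.70 RPKM, against 5.24 to 6.68 RPKM over the regions of single autosomes, and median input was 0.724 RPKM, against 0.857 to 0.975 RPKM. The 1 chosen X region, assigned to G530011O06Rik, had 24.8 RPKM in input. Because the rule used WT RelA, this count is a description.

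Input exceeded 4 RPKM at 6 of the 989 regions, those of Fam172a, G530011O06Rik, Rn45s, Pex2, Bcl2l11 and 6820431F20Rik, and at 79 regions in all. The region in Rn45s, a ribosomal RNA precursor gene, had 18 RPKM of input, RelA of 138 RPKM in RelBko and 152 RPKM in WT, and RelB at 1 h of 90.1 RPKM in RelBko and 191 RPKM in WT. The region of Pex2 had 7.63 RPKM of input and RelB at 1 h of 32.8 RPKM in RelBko and 51.2 RPKM in WT. At 1 h all 6 regions had more RelB signal in RelBko than the median of the 989 (4.51 RPKM), and repeated sequence in them was not tested.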
